A study of Drosophila melanogaster with 4 samples.

Results

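miR-277-3p, miR-277-5p and miR-317-3p are strands of fly microRNA hairpins that lie in one cluster with mir-34. Their reads were collected as every distinct listed sequence that matched the mature strand exactly over at least 14 nt, with a 5′ end shifted by at most 8 nt and a 3′ end shifted by at most 10 nt. Of 7181 distinct sequences listed over 4 libraries, 100 met this rule, 50 for miR-277-3p, 16 for miR-277-5p and 34 for miR-317-3p. They make up 3 of the 631 arms, the name used here for sets of overlapping sequences. Only 20 microRNA strands were named. Whether the unnamed arms come from microRNA hairpins was not tested, so other small RNAs may be among them. Shares and medians over all arms are therefore not limited to microRNA strands. Each library listed from 51 to 83 of the 100 sequences.

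All 4 libraries came from whole male flies of the genotype FLAG-HA-Ago2, raised at 25 °C, and each group is 1 library. The groups are small RNAs bound to Ago1 in flies of 3 d (called young Ago1 from here on), to Ago1 in flies of 30 d (old Ago1), to Ago2 in flies of 3 d (young Ago2) and to Ago2 in flies of 30 d (old Ago2). Ago1 was recovered with an antibody to Ago1 (ab5070) and Ago2 through its FLAG tag, so a difference between the proteins and a difference between the pull-downs cannot be told apart. All flies carry the tagged Ago2, and no untagged flies and no unselected RNA are among the samples. With 1 library per group there is no measure of spread between samples, so differences are given without a test or p-value. Every interval is a 95% interval for counting error alone.

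The libraries listed from 13491805 to 34554191 reads, the fewest for young Ago2. Levels are reads per 1000000 listed reads (RPM), and the limit set by a count of 0 is 3 reads, or 0.0868 to 0.222 RPM. A level is therefore a share of what that protein held, not an amount per fly or per cell, and in whole flies fewer cells of a type and less RNA per cell cannot be told apart.

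MicroRNAs are cut as duplexes from hairpin precursors, and an Argonaute protein keeps one strand, the guide, and discards the other, the passenger. In flies Ago1 carries most guides and represses messenger RNAs through the seed, the bases 2 to 8 from the 5′ end, while Ago2 is best known for siRNAs and takes up some microRNA strands. The exonuclease Nibbler shortens the 3′ ends of several Ago1-bound guides, and Hen1 methylates the 3′ ends of small RNAs in Ago2. miR-277 is known in flies for repressing genes of branched-chain amino acid breakdown and for an effect on lifespan, and from fly cells as a guide that is shared between Ago1 and Ago2. miR-34 is known for neuronal maintenance in ageing flies.

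The hairpins lie in the order mir-317, mir-277, mir-34 on the + strand of chromosome 3R in the BDGP6 annotation, which is a later build than the one the authors used. mir-317 spans 3R:10091126-10091217, mir-277 spans 3R:10100022-10100121 and mir-34 spans 3R:10100936-10101034. The gap from mir-317 to mir-277 is 8804 nt and the gap from mir-277 to mir-34 is 814 nt. mir-277 and mir-34 lie within the span of the transcript lncRNA:CR43459-RC (3R:10093761-10101356), and mir-317 ends 2543 nt before that transcript starts. The guide strands were miR-277-3p (3R:10100080-10100102) and miR-317-3p (3R:10091181-10091204), while miR-277-5p (3R:10100039-10100059) is the passenger strand of its hairpin. The strands are shown 5′ to 3′ as listed in the files, with T for U and the seed in capitals, because the seed decides which targets a strand can pair with.
miR-277-3p: tAAATGCActatctggtacgaca
miR-277-5p: cGTGTCAGgagtgcatttgca
miR-317-3p: tGAACACAgctggtggtatccagt
miR-317-5p: tGGGATACaccctgtgctcgct
miR-34-5p: tGGCAGTGtggttagctggttgtg
miR-34-3p: cAGCCACTatcttcactgccgcc
No seed was shared among these 6 strands.

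The 3 guides of the cluster differed widely in level although their hairpins neighbour each other. miR-277-3p was the fifth most abundant arm in both Ago1 libraries. It stood at 84809.7 RPM (84699 to 84920.3) in young Ago1, 81609 RPM in old Ago1, 10144 RPM in young Ago2 and 9233 RPM in old Ago2. Of the listed reads this was 8.48% and 8.16% for Ago1 but only 1.01% and 0.923% for Ago2, so the Ago1 libraries were far higher at both ages.

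miR-317-3p stood at 3065 RPM (3044 to 3086) in young Ago1, 3453 RPM in old Ago1, 51.5 RPM (47.8 to 55.5) in young Ago2 and 40.9 RPM (38.8 to 43.1) in old Ago2. Both Ago2 values rest on few reads, 695 at 3 d and 1413 at 30 d. Among the reads of the 3 guides together, miR-277-3p held 93.7%, 90.7%, 98.6% and 94.0% in the order young Ago1, old Ago1, young Ago2, old Ago2. miR-317-3p held 3.39% and 3.84% of them with Ago1 but 0.501% and 0.416% with Ago2. The rest was miR-34-5p, whose share was higher at 30 d with both proteins, at 5.46% against 2.86% with Ago1 and 5.60% against 0.925% with Ago2.

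miR-277-5p, the passenger, was rare in every library. It had 1970 reads (73.96 RPM, 70.7 to 77.3) in young Ago1, 817 reads (30.9 RPM, 28.8 to 33.1) in old Ago1, 646 reads (47.9 RPM, 44.3 to 51.7) in young Ago2 and 1081 reads (31.3 RPM, 29.4 to 33.2) in old Ago2. By RPM the young Ago1 library was the highest, an order between the young libraries that other scalings turn, and the levels at 30 d with both proteins had overlapping intervals. It lay under the minimum mean of 100 RPM used for counts over all arms, so it is in none of those counts, whereas miR-277-3p passed the minimum in every comparison. miR-317-3p passed it in every comparison except that of the ages with Ago2.

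**Figure D1:**
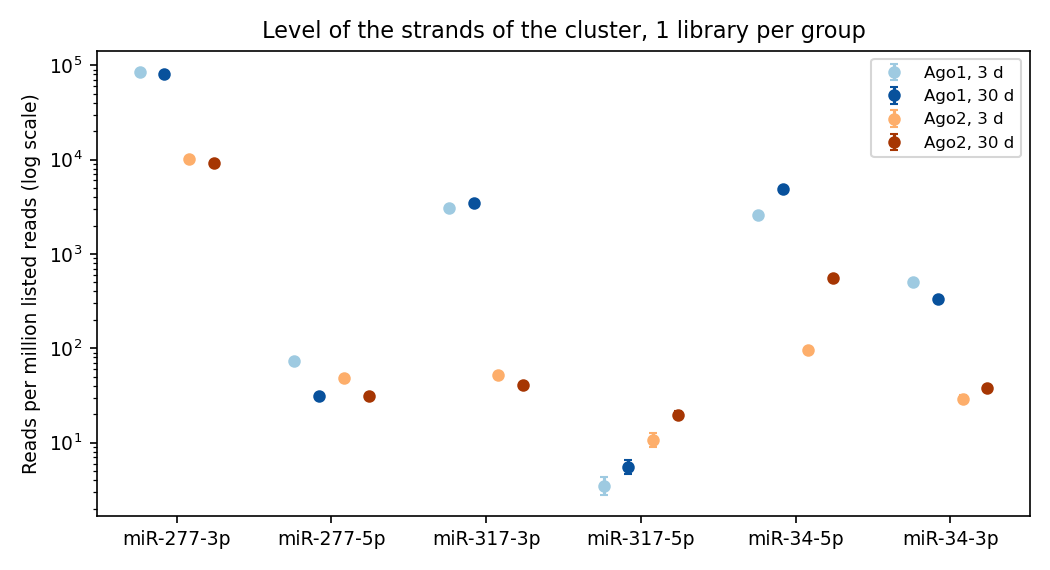
RPM, on a log scale, of the 6 strands of the cluster in each of the 4 libraries; bars are 95% Poisson intervals for counting error. miR-277-3p lies between 9233 and 84809.7 RPM, and miR-317-3p shows the widest gap between its Ago1 points (3065 and 3453 RPM) and its Ago2 points (51.5 and 40.9 RPM).

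Between Ago2 and Ago1, miR-277-3p lay in the middle of all arms and miR-317-3p near the low end. The log2 ratio of RPM, Ago2 over Ago1 with 1 RPM added to each level, was -3.06 (-3.07 to -3.06) for miR-277-3p at 3 d and -3.14 (-3.15 to -3.14) at 30 d, or 8.36-fold and 8.84-fold less of the Ago2 reads. For miR-317-3p it was -5.87 (-6.00 to -5.79) at 3 d and -6.37 (-6.48 to -6.32) at 30 d, 58.4-fold and 82.5-fold less. Both guides were thus among the arms at least 2-fold lower with Ago2, which made up 60% of 90 arms at 3 d and 60.9% of 87 arms at 30 d, while 26.7% and 31% were at least 2-fold higher. The median over all arms was -3.10 at 3 d and -2.53 at 30 d. At 3 d 45 of the 90 arms had a lower ratio than miR-277-3p and 16 a lower ratio than miR-317-3p; at 30 d these were 33 and 5 of 87.

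The ratios depend on what the libraries are scaled to, and a single arm, miR-263a-5p, stood at 484052 and 549506 RPM with Ago2 against 50498 and 37043 RPM with Ago1. TMM, median-of-ratios scaling and totals without the 10 most abundant arms moved every log2 ratio of Ago2 over Ago1 by 0.53, 0.88 and 1.02 at 3 d and by -0.03, 0.81 and 0.74 at 30 d. Under these scalings miR-277-3p stayed lower with Ago2, between -2.05 and -2.54 at 3 d and between -2.34 and -3.17 at 30 d. miR-317-3p also stayed lower, between -4.87 and -5.35 at 3 d.

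miR-277-5p differed much less between the proteins than its partner strand. Its log2 ratio of RPM was -0.62 (-0.76 to -0.50) at 3 d and 0.02 (-0.11 to 0.15) at 30 d, and the direction at 3 d turned to 0.25 with median-of-ratios scaling and 0.39 without the 10 most abundant arms, and that at 30 d to -0.011 with TMM. The share of the passenger within its own hairpin needs no scaling. miR-277-5p made up 0.0871% (0.0834 to 0.0911) of all miR-277 reads in young Ago1, 0.0378% (0.0353 to 0.0405) in old Ago1, 0.470% (0.435 to 0.507) in young Ago2 and 0.338% (0.318 to 0.358) in old Ago2. Both Ago2 libraries were above both Ago1 libraries, and at each age no intervals overlapped. Put as guide reads for each passenger read, miR-277-3p exceeded miR-277-5p 1147-fold and 2642-fold with Ago1 and 212-fold and 295-fold with Ago2.

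The passengers of the neighbouring hairpins set the scale for this. miR-317-5p took 0.114% and 0.1596% of its hairpin's reads with Ago1 but 17.2% (14.8 to 19.9) and 32.7% (30.7 to 34.7) with Ago2. These shares rest on few miR-317-5p reads, 93 and 146 with Ago1 and 144 and 686 with Ago2. Of these reads 64.5% and 87.0% with Ago1, and 64.6% and 73.3% with Ago2, began at the annotated base. miR-317-5p itself was at 10.7 and 19.9 RPM with Ago2 against 3.49 and 5.52 RPM with Ago1, so its level differed less between the proteins than that of its guide. miR-34-3p took 16.4% and 6.29% with Ago1 and 23.2% and 6.40% with Ago2. So the rarer strand held the larger share with Ago2 in all 3 hairpins at both ages, although the intervals of miR-34-3p at 30 d overlapped (6.17 to 6.42 and 6.08 to 6.75), and miR-277 kept by far the smallest passenger share in the Ago2 libraries.

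The predicted pairing of the strands differs among the hairpins. miR-277-5p paired with miR-277-3p through 19 base pairs, of which 4 were G-U pairs, with an energy of -21.8 kcal/mol, and the only base left unpaired inside the duplex was position 11 of miR-277-3p. miR-317-5p and miR-317-3p formed 16 pairs at -19.8 kcal/mol, with 1 base unpaired inside on the 5p strand and 4 on the 3p strand. The miR-34 strands formed 18 pairs at -26.2 kcal/mol, with 3 and 2 bases unpaired inside. Pairing is known from fly cells to bear on which Argonaute takes a duplex; its part in these ratios was not tested.

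With age, the level of miR-277-3p differed little with either protein. The log2 ratio of RPM, 30 d over 3 d, was -0.06 with Ago1, where TMM turned it to 0.32 and median-of-ratios scaling to 0.05, and -0.14 with Ago2. miR-317-3p was slightly higher with Ago1 at 0.17 (0.16 to 0.19) and slightly lower with Ago2 at -0.33 (-0.47 to -0.20), directions that were the same under every scaling tried. Neither guide reached a 2-fold difference, which 1.22% of 82 arms did upwards and 1.22% downwards with Ago1, and 16.2% and 11.8% of 68 arms with Ago2. The upward count with Ago1 was 1 arm, against 7 with TMM, 3 with median of ratios and 2 without the 10 most abundant arms, and that with Ago2 was 11, against 7 with TMM and 7 without those arms. The median over all arms was -0.02 with Ago1 and 0.35 with Ago2.

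The passenger was lower in older flies. miR-277-5p had a log2 ratio of -1.23 (-1.38 to -1.14) with Ago1, 2.35-fold lower at 30 d, and -0.60 (-0.76 to -0.47) with Ago2. With Ago1 the TMM value was -0.87, under 2-fold. TMM, median-of-ratios scaling and totals without the 10 most abundant arms moved every log2 ratio of the ages by 0.37, 0.10 and 0.05 with Ago1 and by -0.18, 0.03 and -0.23 with Ago2.

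Sorting, as the log2 ratio between the proteins, differed between the ages by -0.08 (-0.09 to -0.07), 30 d minus 3 d, for miR-277-3p. This small difference depended on the scaling, being -0.64 with TMM, -0.15 with median of ratios and -0.36 without the 10 most abundant arms. For miR-317-3p the ratio was lower at 30 d by a difference of -0.50 (-0.63 to -0.37), and TMM made it -1.05. For miR-277-5p it was higher by 0.63 (0.45 to 0.82), which TMM brought to 0.089. miR-34-5p, the third guide of the cluster, differed by 1.59 (1.51 to 1.68), from -4.75 to -3.16. The comparisons of the proteins and of the ages share libraries, so these values are not separate evidence.

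Reads of miR-277-3p had 2 main lengths. Reads of 22 or 23 nt, counting all 5′ starts, together made up 96.5% and 94.6% of its reads in young and old Ago1, and 95.5% and 85.9% with Ago2. Most of these were the 23-nt annotated strand and a 22-nt form without its last base. The forms described next share their 5′ end and seed except the last, which starts 1 nt later and so carries another seed. Those with the common 5′ end are shown because they differ only in the last 4 bases. The last is shown because its share also differed between the libraries. The 19-nt form was chosen after its values were seen, since 5 forms had a higher mean level.
miR-277-3p, 23 nt: tAAATGCActatctggtacgaca
miR-277-3p, 22 nt: tAAATGCActatctggtacgac
miR-277-3p, 21 nt: tAAATGCActatctggtacga
miR-277-3p, 20 nt: tAAATGCActatctggtacg
miR-277-3p, 19 nt: tAAATGCActatctggtac
miR-277-3p, start shifted by 1 nt: aAATGCACtatctggtacgac

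With both proteins the 23-nt form held a smaller share at 30 d, but the shorter forms that held a larger one were not alike. The 23-nt form was at 31170.3 RPM in young Ago1, 8295 RPM in old Ago1, 2626 RPM in young Ago2 and 1441 RPM in old Ago2. Its level was lower at 30 d with both proteins, more so with Ago1, where the log2 ratio was -1.91, than with Ago2, where it was -0.87. The 22-nt form was at 49907 and 68837 RPM with Ago1 and at 7034 and 6481 RPM with Ago2, higher at 30 d with Ago1 (0.46) and slightly lower with Ago2 (-0.12). For each 23-nt read there were 1.60 and 8.30 reads of the 22-nt form in young and old Ago1, and 2.68 and 4.50 with Ago2.

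The 2 shortest of these forms parted between the proteins. The 20-nt form was at 138 RPM in young Ago1, 1246 RPM in old Ago1, 143 RPM in young Ago2 and 131 RPM in old Ago2. The old Ago1 library thus stood 9.01-fold above young Ago1 (log2 ratio 3.16), while the Ago2 libraries were nearly level (log2 ratio -0.12). Folds given for single forms, here and below, are plain ratios of RPM, whereas their log2 ratios have 1 RPM added. The 19-nt form was at 26.5 RPM in young Ago1, 128 RPM in old Ago1, 66.3 RPM in young Ago2 and 905 RPM in old Ago2. It was 4.81-fold higher at 30 d with Ago1 and 13.6-fold higher with Ago2 (log2 ratio 3.75, interval 3.67 to 3.87). For each 19-nt read there were 5.22 and 9.77 reads of the 20-nt form with Ago1, but 2.15 and 0.145 with Ago2. The 21-nt form was at 571 and 2247 RPM with Ago1 and at 97.6 and 145 RPM with Ago2, higher at 30 d with both.

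**Figure D2:**
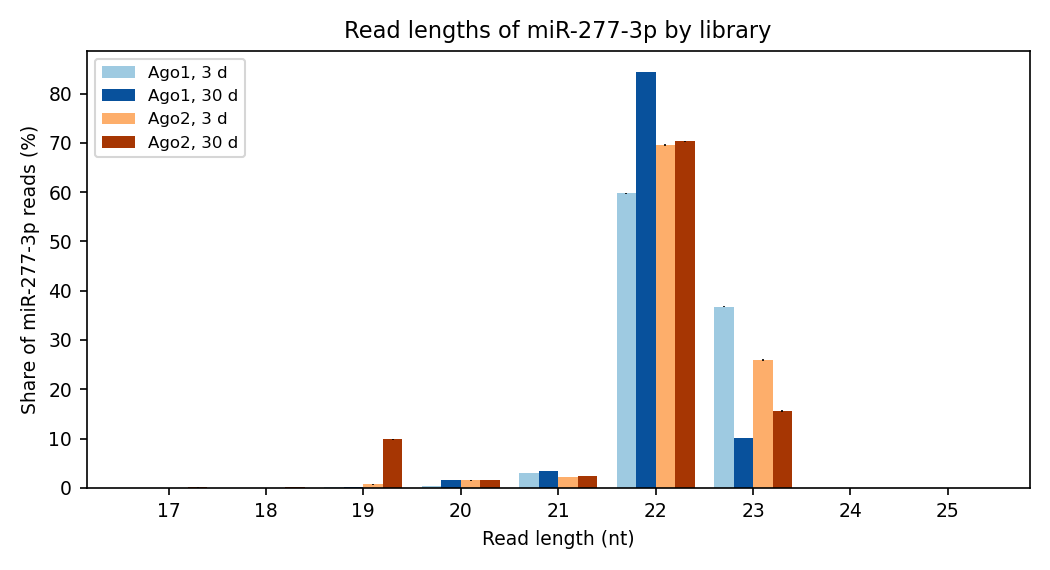
Share of miR-277-3p reads (%) by read length in nt, for the 4 libraries; bars are 1 library each, with 95% Wilson intervals that are mostly too small to see. The 22-nt bars are the tallest, reaching 84.4% in old Ago1, and the 19-nt bar stands out in old Ago2 at 9.90%.

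As a share of all its reads, 23-nt miR-277-3p was 36.8% in young and 10.2% in old Ago1, against 25.9% in young and 15.6% in old Ago2, counting all 5′ starts. Reads of 22 nt were 59.8% and 84.4% of the strand with Ago1, against 69.6% and 70.3% with Ago2. Reads of 20 nt were 0.281%, 1.63%, 1.501% and 1.56% in the order young Ago1, old Ago1, young Ago2, old Ago2. Reads of 19 nt were 0.0861%, 0.218%, 0.712% and 9.90% in that order. The ladder of shorter forms ended there, since the 18-nt form with the annotated start had 137 reads in old Ago2 against 31269 for the 19-nt form.

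Sorting between the proteins therefore differed by form. At 3 d the log2 ratio of RPM, Ago2 over Ago1, was -3.57 for the 23-nt form, -2.83 for 22 nt, -2.54 for 21 nt, 0.04 for 20 nt and 1.29 for 19 nt, higher with each base lost. At 30 d it was -2.52, -3.41, -3.94, -3.24 and 2.82 in the same order, so that the 19-nt form alone of these 5 was higher with Ago2. It was 7.09-fold higher there, against 2.50-fold at 3 d. The longest and the shortest of these forms had a higher ratio at 30 d than at 3 d, and the 3 between them a lower one. Without its short forms miR-277-3p as a whole had log2 ratios of -3.07 at 3 d and -3.29 at 30 d.

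**Figure D3:**
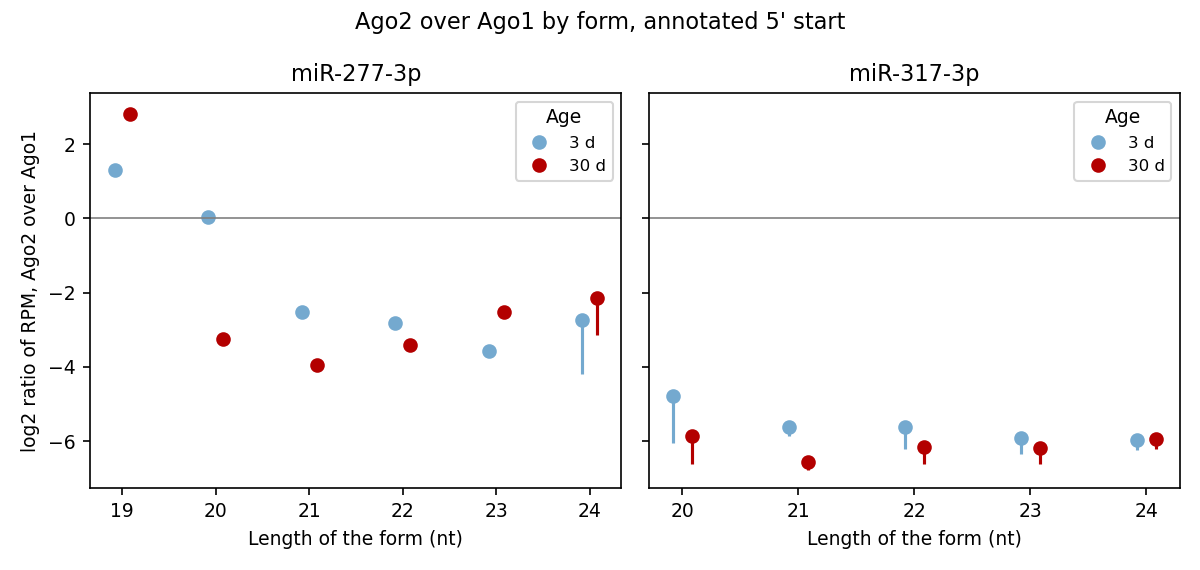
The log2 ratio of RPM of Ago2 over Ago1, with 1 RPM added to each level, by length in nt of the forms with the annotated 5′ start, at 3 d and 30 d; lines are 95% intervals of the raw counts, without the added RPM, so that a point of a rare form can lie at or past the end of its line. For miR-277-3p the 19-nt form lies above 0 at 1.29 and 2.82, while the forms of miR-317-3p shown lie between -4.78 and -6.56.

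Short 3′ forms were counted as reads that end at least 3 nt before the end of a strand's most abundant form. For miR-277-3p, with its most abundant form of 22 nt, they were 0.0341% (0.0318 to 0.0366) in young Ago1, 0.1603% (0.155 to 0.166) in old Ago1, 0.681% (0.639 to 0.726) in young Ago2 and 9.91% (9.81 to 10.01) in old Ago2. Counted from the annotated end they were 0.201%, 1.70%, 2.11% and 11.3%. The share was higher at 30 d with both proteins and higher with Ago2 at both ages. miR-277-3p was 1 of the 4 arms, 7.27% of the 55 with at least 1000 reads in every library, whose share was at least 5 percentage points higher at 30 d with Ago2. Of these 55 only miR-34-5p had a larger difference, from 32.8% to 82.2%. miR-34-3p was not among the 55, having 389 reads in young Ago2, and its share there was 6.17% at 3 d and 34.5% at 30 d. The median share over the 55 arms with Ago2 was 0.429% at 3 d and 0.972% at 30 d. With Ago1, 3.64% of the arms passed that step, miR-277-3p not among them, and 23 arms had a larger difference than miR-277-3p.

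In miR-34-5p the abundant short form was 18 nt long, 6 nt short of its annotated end, and it outnumbered the 21-nt form 14.95-fold in old Ago2 against 2.03-fold at 3 d. In old Ago1 there were 0.199 reads of it for each 21-nt read. As a level, that 18-nt form was higher in old Ago1, at 605 RPM, than in old Ago2, at 446 RPM, unlike the 19-nt form of miR-277-3p. Median-of-ratios scaling and totals without the 10 most abundant arms move ratios of Ago2 over Ago1 at 30 d upwards by more than this gap, and so turn that order. The passenger miR-34-3p also had a short form, of 19 nt, with 25.6% of its reads in old Ago2 and 9.94% in old Ago1. These short forms of the miR-34 strands were singled out after their values were seen.

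Counted from its most abundant form, miR-317-3p had few short 3′ forms with Ago1, and with Ago2 they were not detected at this depth. Its reads were spread over 4 lengths, with the 24-nt annotated strand and a 21-nt form as the most abundant.
miR-317-3p, 24 nt: tGAACACAgctggtggtatccagt
miR-317-3p, 21 nt: tGAACACAgctggtggtatcc
The 24-nt form was at 1173 RPM in young Ago1, 786 RPM in old Ago1, 17.6 RPM in young Ago2 and 11.8 RPM in old Ago2, lower at 30 d with both proteins. The 21-nt form was at 941, 1484, 18.3 and 14.8 RPM in the same order, higher at 30 d with Ago1 only. For each 24-nt read there were 0.802 and 1.89 reads of the 21-nt form with Ago1 and 1.04 and 1.25 with Ago2.

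As shares, 24-nt reads were 38.3% of the strand in young and 22.8% in old Ago1, against 34.1% and 28.9% in young and old Ago2. The 21-nt reads were 30.7% in young and 43.0% in old Ago1, against 35.5% and 36.2% for Ago2. The 20-nt form, next on the ladder, held 2.46%, 6.21%, 3.45% and 6.65% of the strand's reads in the order young Ago1, old Ago1, young Ago2, old Ago2. Ends at least 3 nt before the 21-nt end were listed for 3 and 8 reads with Ago1. With Ago2 they were listed for 0 of 695 reads at 3 d and 0 of 1413 at 30 d, which by the limit of 3 reads allows shares of up to 0.432% and 0.212%, and by Wilson intervals of up to 0.550% and 0.271%. All these limits lie below the 9.91% of miR-277-3p in old Ago2, but the cuts are unlike. The 21-nt form of miR-317-3p itself ends 3 nt before the annotated end, and the 22-nt form of miR-277-3p ends 1 nt before its own. Ends 4 nt before the annotated end held 3.45% and 6.65% of miR-317-3p reads in young and old Ago2. For miR-277-3p these were 0.658% and 9.83%. Counted from the annotated end, short reads of miR-317-3p were 33.3% in young and 49.5% in old Ago1, against 39.4% and 43.4% for Ago2, since the 21-nt form then counts as short.

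**Figure D4:**
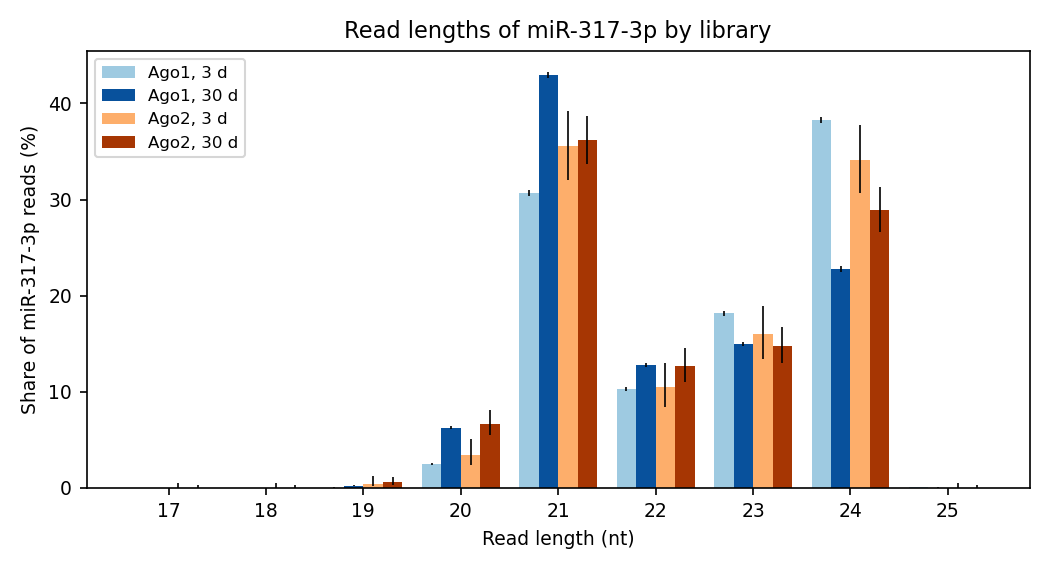
Share of miR-317-3p reads (%) by read length in nt, for the 4 libraries; bars are 1 library each, with 95% Wilson intervals, which are widest for Ago2 because it rests on 695 and 1413 reads. The 24-nt share is lower at 30 d with Ago1 (22.8% against 38.3%) and the 21-nt share is higher (43.0% against 30.7%).

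The mean read length of the guides was lower at 30 d with both proteins, nearly all of it from the 3′ end. For miR-277-3p it was 22.33 nt and 22.02 nt with Ago1 and 22.18 nt and 21.79 nt with Ago2, differences of -0.30 nt and -0.39 nt. For miR-317-3p it was 22.59 nt and 22.04 nt with Ago1, a difference of -0.55 nt (-0.56 to -0.53), and 22.40 nt and 22.22 nt with Ago2, a difference of -0.19 nt (-0.31 to -0.06). A mean at least 0.25 nt shorter was found for 19.4% of 165 arms with Ago1 and 21.6% of 125 arms with Ago2, and the medians over those arms were -0.05 nt and -0.10 nt. miR-277-3p passed this step with both proteins and miR-317-3p with Ago1 only. With Ago1 19 arms had shortened more than miR-277-3p and 9 more than miR-317-3p; with Ago2 these were 15 and 39.

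miR-277-3p and miR-317-3p thus stood in opposite orders in the pair of proteins. miR-317-3p was the more shortened with Ago1 and miR-277-3p the more shortened with Ago2. miR-34-5p was shortened most among the cluster's strands with both, by a mean difference of -1.20 nt and -2.27 nt, and miR-34-3p by -0.61 nt and -1.18 nt.

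**Figure D5:**
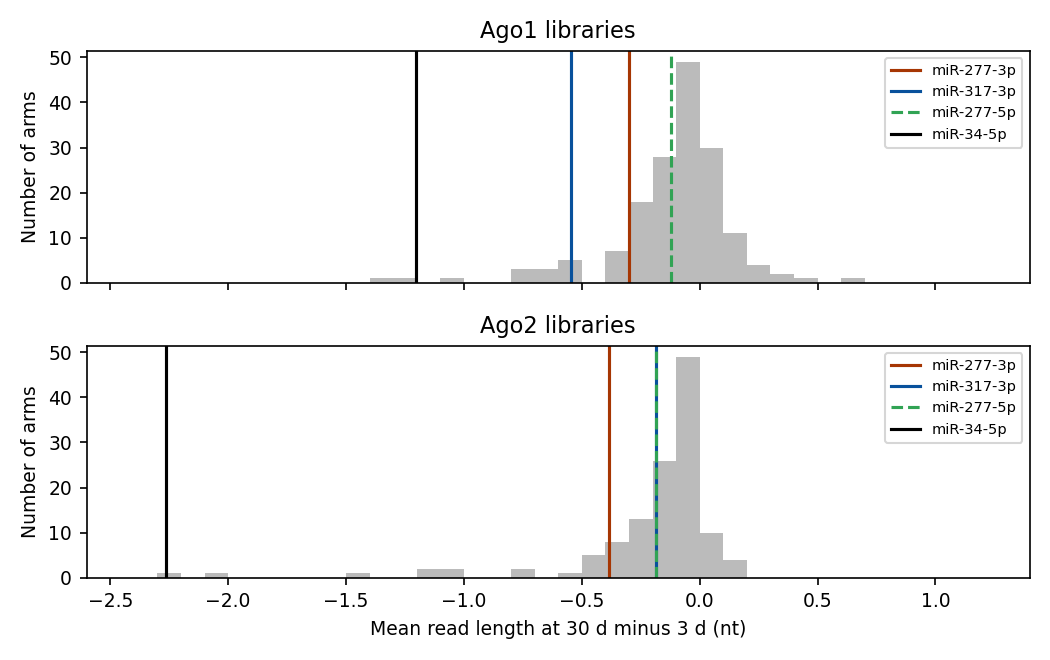
Number of arms by the difference in mean read length, 30 d minus 3 d, in nt, for 165 arms with Ago1 and 125 with Ago2 that had at least 100 reads at both ages; vertical lines mark strands of the cluster. The line of miR-317-3p lies at -0.55 nt with Ago1 and at -0.19 nt with Ago2, where it coincides with the dashed line of miR-277-5p, while miR-277-3p lies at -0.30 nt and -0.39 nt.

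Most reads of the passenger had one length. Reads of 21 nt, the annotated length, made up 91.4% and 89.4% of miR-277-5p with Ago1 and 88.7% and 92.3% with Ago2. Its short 3′ forms were at most 0.833% of reads in any library, 9 of 1081 reads in old Ago2. Its mean length was lower at 30 d by a difference of -0.12 nt with Ago1 and -0.18 nt with Ago2, between the medians over all arms and the guides' values. A few reads ran past the annotated end, towards the hairpin loop. They were 1.42% of reads in young Ago1, 0% in old Ago1, 3.72% in young Ago2 and 1.02% in old Ago2. The 28-nt form of this kind had 22 reads in young Ago1, 0 in old Ago1, 10 in young Ago2 and 5 in old Ago2. Most of the lower mean length at 30 d came from the smaller share of these long reads, so it is not a measure of shortened 3′ ends.

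The 5′ ends, which set the seed, were far more fixed than the 3′ ends. Of miR-277-3p reads 96.5% and 99.0% began at the annotated base with Ago1 and 98.3% and 98.7% with Ago2. Most of the rest began 1 nt later, 3.21% (3.19 to 3.24) in young Ago1, 0.801% (0.789 to 0.813) in old Ago1, 1.43% (1.37 to 1.49) in young Ago2 and 0.933% in old Ago2. The share of the shifted start was lower at 30 d with both proteins. The most abundant sequence of this kind, shown above with its shifted seed, was at 1924 RPM in young Ago1, 572 RPM in old Ago1, 119 RPM in young Ago2 and 72.3 RPM in old Ago2. At 3 d with Ago1 it was thus more abundant than the 21-nt form with the annotated start, and at 30 d less. miR-317-3p began at the annotated base in at least 99.6% of reads in every library, and miR-277-5p in 96.0% to 98.4%.

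No listed sequence that began with the first 14 bases of a strand left that strand further on. Those longer than the annotated strand extended it by 1 common sequence, for each of the 3 strands. Whether tailed reads could have entered the lists is not given in the sources used here.

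Of 8 arms recalled as trimmed by Nibbler, 3 were at least 0.25 nt shorter at 30 d with Ago1, namely miR-317-3p, miR-34-5p and miR-305-5p, and 0 were longer by that step, where 19.4% of all 165 arms were shorter by it. With Ago2, 2 of the 7 arms measured were shorter, miR-34-5p and miR-305-5p, and 0 longer, near the 21.6% of all 125 arms. The median difference over the list was -0.18 nt with Ago1 and -0.25 nt with Ago2, against -0.05 nt and -0.10 nt over all arms. miR-305-5p differed by -0.66 nt with Ago1 and -1.01 nt with Ago2. miR-263a-5p, the most abundant arm of the list, differed by -0.13 nt and -0.25 nt, and miR-10-5p, miR-100-5p, miR-11-3p and miR-7-5p by -0.21 nt to -0.10 nt with Ago1. miR-277-3p is not on the list, and its difference with Ago1 was larger than that of 5 of the 8.

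For none of the 3 strands were the 3 arms with the most similar pattern over the 4 libraries from the mir-34 hairpin. Likeness was the distance between log2 levels after each arm's mean was removed, over 89 arms and 4 libraries. The 3 strands themselves were not among these 89 arms. None of them could therefore come out as nearest to another, and their likeness to each other was not tested. For miR-277-3p the nearest were miR-9c-5p at 0.14, miR-375-3p at 0.38 and miR-190-5p at 0.44, while miR-34-5p took place 35 at 2.17. The place of miR-34-3p is not given, but it was nearer to miR-277-3p by age than miR-34-5p was. Its log2 ratios of 30 d over 3 d were -0.62 with Ago1 and 0.37 with Ago2. Those of miR-34-5p were 0.92 and 2.52, and those of miR-277-3p -0.06 and -0.14. For miR-317-3p they were miR-981-3p at 0.23, miR-281-3p at 0.33 and miR-275-3p at 0.53, with miR-34-5p in place 37 at 3.00. For miR-277-5p no arm was as near; miR-988-3p stood at 0.84, miR-184-3p at 0.98 and an arm with no name here at 1.04. The levels of miR-9c-5p were 866 and 851 RPM with Ago1 and 116 and 97.2 RPM with Ago2, far below those of miR-277-3p at a like ratio between the proteins.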

How the data were processed

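The authors deposited 1 table per library, which pairs each small RNA sequence with its count of reads, a whole number that was not normalized. Per the submitters' processing notes, CASAVA 1.8.2, Bowtie and the genome build dm3 were used. How reads were trimmed, aligned and filtered for the lists is not given in the sources used here, so totals are those of the listed reads.

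A sequence listed several times was counted once; no sequence of the 3 strands was repeated. Names rest on recalled first bases (8, or 9 for miR-9c-5p) and, where annotated, on the length of the annotated arm in BDGP6. Of 20 names, 18 were annotated and all 18 had a listed form of that length. Members, lists and the named-strand rule (the 3 strands, their cluster, the 5 most abundant forms of each, the 3 most similar arms, the recalled Nibbler list) were chosen with earlier results of these data known.

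Counts were divided by listed reads to give RPM. Log2 ratios used a pseudocount of 1 RPM and have exact conditional binomial 95% intervals of the raw counts. Differences of ratios have delta-method intervals and shares Wilson intervals. These intervals cover counting error only: the reads carry no label that separates PCR copies from molecules. Counts over arms took those that averaged 100 RPM or more over both libraries, with a 2-fold step; mean lengths needed 100 reads at both ages. Pairing was predicted with RNAduplex (ViennaRNA 2.7.2). TMM (edgeR 4.0.16) and median of ratios (DESeq2 1.42.0) served only as other scalings. Python 3.11.15 with pandas 2.3.3, numpy 2.4.6 and scipy 1.17.1 was used. The interval code was tested on simulated data. With 1 library in each of the 4 groups, none of the 4 comparisons was tested.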

Additional observations from a re-analysis of the deposited data

Results flagged for a closer look

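For the 3 strands and their named forms with the annotated start, the level was compared between the ages, and 4 of them differed in opposite directions with Ago1 and Ago2 with both counting intervals clear of 0. Each point is 1 library, and the difference was not tested. For the 20-nt form of miR-277-3p the log2 ratio of RPM, 30 d over 3 d, was 3.16 with Ago1 and -0.12 with Ago2, a difference of -3.28, Ago2 minus Ago1. For the 22-nt form of miR-277-3p it was 0.46 and -0.12, a difference of -0.58. For miR-317-3p it was 0.17 and -0.33, a difference of -0.50. For the 21-nt form of miR-317-3p it was 0.66 and -0.29, a difference of -0.95. Groups of 1 library could not be searched for samples that stand apart.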

How the results depend on the processing

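No paired analysis was possible because each group is 1 library, and for that reason no library could be left out in turn. Over all alternatives run on the 3 strands, the direction turned for miR-277-3p by age with Ago1 (TMM, median of ratios and the most abundant form alone) and for miR-277-5p between the proteins, at 3 d with median of ratios and without the 10 most abundant arms, and at 30 d with TMM (-0.011). The cause was not tested. A pseudocount of 0.1 RPM and an overlap of at least 18 nt left every ratio of the 3 strands within its counting interval. With the former the ratio of miR-317-3p at 30 d was -6.40. With the latter the few short 3′ forms of miR-277-5p (0.279% in old Ago2, 0 with Ago1) and of miR-317-3p with Ago1 fell below their intervals, and the other shares stayed within theirs. The alternatives for the difference between the ages were chosen after seeing the data. With TMM the log2 ratio of Ago2 over Ago1 at 3 d was -2.54 for miR-277-3p, -0.10 for miR-277-5p and -5.35 for miR-317-3p. At 30 d it was -3.17 for miR-277-3p. For 30 d over 3 d it was, with Ago1, 0.32 for miR-277-3p, -0.87 for miR-277-5p and 0.54 for miR-317-3p and, with Ago2, -0.32 for miR-277-3p, -0.78 for miR-277-5p and -0.51 for miR-317-3p. The difference of the ratio of Ago2 over Ago1, 30 d minus 3 d, was then -0.64 for miR-277-3p, 0.089 for miR-277-5p and -1.05 for miR-317-3p. The number of arms at least 2-fold higher, of 30 d over 3 d, was then 7 with Ago1 and 7 with Ago2. With median-of-ratios scaling the log2 ratio of Ago2 over Ago1 at 3 d was -2.18 for miR-277-3p, 0.25 for miR-277-5p and -4.99 for miR-317-3p. At 30 d it was -2.34 for miR-277-3p, 0.80 for miR-277-5p and -5.57 for miR-317-3p. For 30 d over 3 d it was, with Ago1, 0.047 for miR-277-3p and 0.27 for miR-317-3p and, with Ago2, -0.11 for miR-277-3p. The difference of the ratio of Ago2 over Ago1, 30 d minus 3 d, was then -0.15 for miR-277-3p. The number of arms at least 2-fold higher, of 30 d over 3 d, was then 3 with Ago1. With totals that leave out the 10 most abundant arms the log2 ratio of Ago2 over Ago1 at 3 d was -2.05 for miR-277-3p, 0.39 for miR-277-5p and -4.87 for miR-317-3p. At 30 d it was -2.40 for miR-277-3p, 0.76 for miR-277-5p and -5.65 for miR-317-3p. For 30 d over 3 d it was, with Ago1, -0.0094 for miR-277-3p and 0.22 for miR-317-3p and, with Ago2, -0.37 for miR-277-3p, -0.84 for miR-277-5p and -0.56 for miR-317-3p. The difference of the ratio of Ago2 over Ago1, 30 d minus 3 d, was then -0.36 for miR-277-3p, 0.37 for miR-277-5p and -0.78 for miR-317-3p. The number of arms at least 2-fold higher, of 30 d over 3 d, was then 2 with Ago1 and 7 with Ago2. With the most abundant form alone the log2 ratio of Ago2 over Ago1 at 3 d was -2.83 for miR-277-3p and -5.61 for miR-317-3p. At 30 d it was -3.41 for miR-277-3p and -6.56 for miR-317-3p. For 30 d over 3 d it was, with Ago1, 0.46 for miR-277-3p and 0.66 for miR-317-3p and, with Ago2, -0.12 for miR-277-3p. The difference of the ratio of Ago2 over Ago1, 30 d minus 3 d, was then -0.58 for miR-277-3p and -0.95 for miR-317-3p. The share of miR-277-5p in its hairpin was then 0.135% in young Ago1, 0.589% in young Ago2 and 0.434% in old Ago2. With repeated sequences counted each time the log2 ratio of Ago2 over Ago1 at 3 d was -3.05 for miR-277-3p. At 30 d it was -3.13 for miR-277-3p. With no minimum level, the arms at least 2-fold higher numbered 72 for Ago2 over Ago1 at 3 d, 76 for Ago2 over Ago1 at 30 d, 10 for 30 d over 3 d with Ago1 and 35 for 30 d over 3 d with Ago2. With no minimum level, the arms at least 2-fold lower numbered 133 for Ago2 over Ago1 at 3 d, 131 for Ago2 over Ago1 at 30 d, 15 for 30 d over 3 d with Ago1 and 24 for 30 d over 3 d with Ago2. With a minimum mean of 1000 RPM, the arms at least 2-fold higher numbered 11 for Ago2 over Ago1 at 3 d, 11 for Ago2 over Ago1 at 30 d and 3 for 30 d over 3 d with Ago2. With a minimum mean of 1000 RPM, the arms at least 2-fold lower numbered 23 for Ago2 over Ago1 at 3 d, 21 for Ago2 over Ago1 at 30 d, 0 for 30 d over 3 d with Ago1 and 1 for 30 d over 3 d with Ago2. Counting ends at least 2 nt before that of the most abundant form, short 3′ forms of miR-277-3p were 0.201% in young Ago1, 1.70% in old Ago1, 2.11% in young Ago2 and 11.3% in old Ago2. For miR-317-3p they were then 0.0331% in young Ago1, 0.222% in old Ago1 and 0.495% in old Ago2. Counting ends at least 3 nt before the annotated end, short 3′ forms of miR-277-3p were 0.201% in young Ago1, 1.70% in old Ago1, 2.11% in young Ago2 and 11.3% in old Ago2. For miR-317-3p they were by that count 33.3% in young Ago1, 49.5% in old Ago1, 39.4% in young Ago2 and 43.4% in old Ago2. Depth limited miR-277-5p, with 646 to 1970 reads, and miR-317-3p with Ago2, with 695 and 1413.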
